A study of Mus musculus with 6 samples.

Results

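The genes described here are 10 regulators of the G1 phase of the cell cycle: the D-type cyclins Ccnd1, Ccnd2 and Ccnd3, their kinases Cdk4 and Cdk6, the kinase inhibitors Cdkn1a, Cdkn1b, Cdkn1c and Cdkn2c, and the retinoblastoma gene Rb1. They were taken by name from the platform's probe annotation, as probe sets that carry exactly 1 gene symbol, and all 10 were measured, by 11 probe sets of 41345. Of the 22180 named genes tested, each was represented by its probe set of highest mean, which left out 1 dim probe set of Rb1. By the labels, RNA came from primary lung fibroblasts of wild-type male C57BL/6 mice aged 8 weeks, enriched from digested lung. They were grown in medium with serum for no more than 3 passages. The arrays also held bright signals of macrophage markers, given further on. Of the 6 wells, 3 received vehicle and 3 received purmorphamine, a small molecule that activates the Hedgehog transducer Smoothened, for 24 h. Its labelled dose, 5um, is taken as 5 µM, and the vehicle is not named. Each well was measured on 1 Affymetrix array. The labels do not say from how many mice or pools the wells came, so the p-values rest on well-to-well spread, and this spread may be technical.

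D-type cyclins bind CDK4 or CDK6 and carry growth factor signals into the cell cycle, by starting the phosphorylation of the retinoblastoma protein. The unphosphorylated protein holds E2F transcription factors on genes needed for DNA replication, and its phosphorylation releases them. Inhibitors of the INK4 family, such as the product of Cdkn2c (p18), bind CDK4 and CDK6 themselves, whereas those of the Cip/Kip family, Cdkn1a (p21), Cdkn1b (p27) and Cdkn1c (p57), bind cyclin and kinase together and restrain CDK2. Ccnd1 and Ccnd2 are known as genes that Hedgehog signals can raise in other tissues.

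The values are log2 signals, in which 1 unit is a 2-fold difference, and a gene was called changed at a limma adjusted p under 0.05 over all genes tested. Of the 10 genes, Cdkn2c and Ccnd1 fell, by 1.56-fold and 1.47-fold, and Cdkn1b and Rb1 rose, by 1.33-fold and 1.15-fold. The other 6 (Ccnd2, Ccnd3, Cdk4, Cdk6, Cdkn1a and Cdkn1c) did not pass the test. Only the change of Cdkn2c exceeded 1.5-fold. The 4 calls among 10 genes (40.0%) stand beside 14.3% of all genes tested (7.18% raised and 7.16% lowered). They also stand beside 28.4% of the genes with a mean signal above 8.21, the upper quartile of all array values, where 9 of the 10 lie. The 40.0% includes Rb1, whose call (limma adjusted p = 0.0492) was lost whichever array was omitted. Since the RNA is of whole cultures, fewer cells of a type and less RNA per cell cannot be told apart. The median difference of the 10 genes was 0.05 log2 units, against -0.008 for all genes, and their median absolute difference 0.15, against 0.11.

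**Figure D1:**
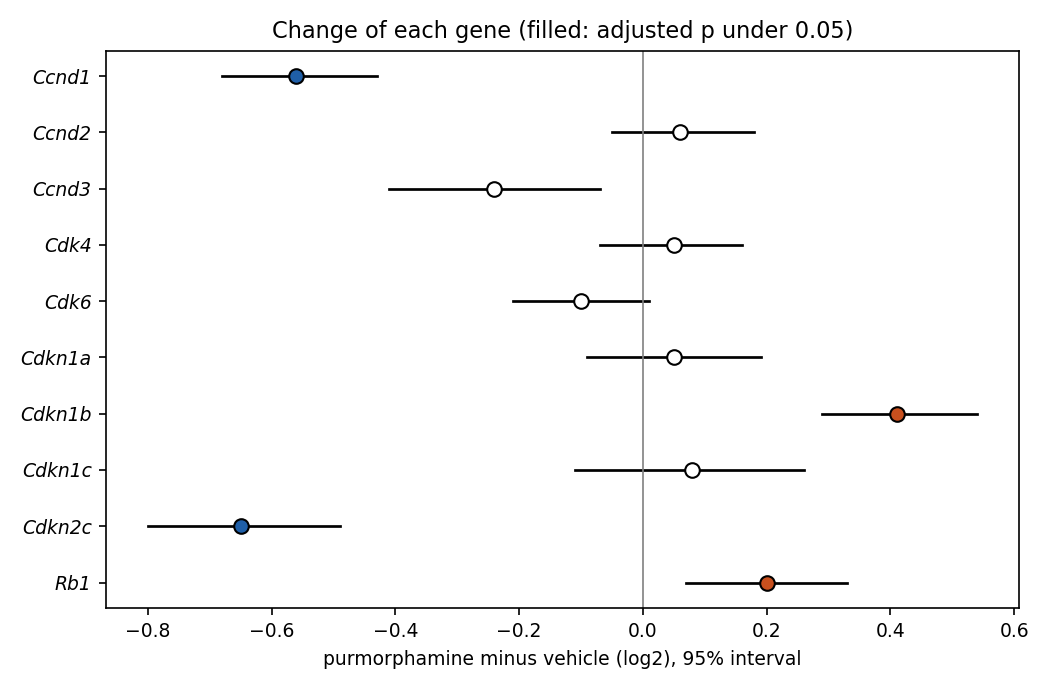
Difference between purmorphamine and vehicle in log2 units (horizontal axis) for each of the 10 genes, as the limma estimate with its 95% interval from 3 arrays per group; filled points passed an adjusted p under 0.05. The intervals of Ccnd1 (-0.68 to -0.43) and Cdkn2c (-0.80 to -0.49) lie farthest below 0 and that of Cdkn1b (0.29 to 0.54) farthest above it.

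The promoters of the largest fall and the largest rise among these genes are shown because both genes are known to be controlled in part through transcription. RefSeq promoter windows of build GRCm38.p6 run from 250 bases before to 50 bases after a transcript start. They were present for 6 of the 10 genes, in 9 windows, and not for Ccnd1, Ccnd2, Cdkn1c and Rb1. Both sequences are written 5′ to 3′ along the gene, with capitals for every match to an E2F motif (spelled TTCCCGC, or else TTGGCGC, or else TTCGCGC, or else TTGCCGC), a GLI motif (GACCACCCA), a forkhead motif (TGTTTAC), the letters GGGCGG (known as the GC box) or the letters CCAAT (the box of that name), searched on both strands and chosen after the values were seen. The Cdkn2c window is at chr4:109666707-109667006 on the minus strand, and the Cdkn1b window at chr6:134920151-134920450 on the plus strand.
Cdkn2c: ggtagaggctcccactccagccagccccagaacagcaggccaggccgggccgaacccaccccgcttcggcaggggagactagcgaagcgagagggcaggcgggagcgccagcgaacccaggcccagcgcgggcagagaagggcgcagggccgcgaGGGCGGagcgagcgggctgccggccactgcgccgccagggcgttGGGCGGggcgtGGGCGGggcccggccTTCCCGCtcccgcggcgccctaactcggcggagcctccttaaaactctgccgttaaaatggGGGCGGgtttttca
Cdkn1b: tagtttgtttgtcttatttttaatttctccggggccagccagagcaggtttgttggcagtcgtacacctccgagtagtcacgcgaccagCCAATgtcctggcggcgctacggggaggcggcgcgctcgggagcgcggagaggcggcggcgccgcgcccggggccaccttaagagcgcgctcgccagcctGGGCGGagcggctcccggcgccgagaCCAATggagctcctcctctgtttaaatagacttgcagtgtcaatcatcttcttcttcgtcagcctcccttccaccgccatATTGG
The Cdkn2c window held 1 E2F match, TTCCCGC, which begins 25 bases upstream of the start, and 4 GC boxes, which begin 95, 51 and 40 bases upstream and at base 37 of the transcript. The Cdkn1b window held no E2F match. It held 1 GC box, 61 bases upstream, and 3 CCAAT boxes, 161 and 35 bases upstream and, on the other strand, at base 46 of the transcript. No 2 matches in these windows overlapped.

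Of all 32851 RefSeq windows of that length, 9.6% held an E2F match, 35.7% a GC box and 37.4% a CCAAT box. The Cdkn2c window was the 1 window with an E2F match among the 9 windows of these genes, and a second Cdkn2c start lacked one. For comparison, 9 of the 14 S phase genes discussed further on that had a window carried an E2F match. Those genes were listed as known E2F targets, so this share is not an independent result. Ccnd1, Ccnd2, Cdkn1c and Rb1 had no window, so no motif was searched for in them. No GLI match was found in any of the 9 windows present, against 0.3% of all windows. A forkhead match was found in 1 of them, a Ccnd3 window, against 3.6%. These are matches of letters within 300 bases and say nothing of binding.

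Among the D-type cyclins, Ccnd1 fell, while Ccnd2 and Ccnd3 did not pass the test. Ccnd1 encodes cyclin D1, the D cyclin most closely tied to growth factor signals in fibroblasts. Its log2 values were 11.68, 11.64 and 11.64 with vehicle and 11.15, 11.10 and 11.04 with purmorphamine. The groups did not overlap, and the gap between them, 0.48, was much wider than the spread within either. Ccnd1 fell by 0.56 log2 units, from 11.65 ± 0.02 to 11.10 ± 0.06 (SD, n = 3; SE 0.05, limma adjusted p = 0.00106), and ranked 334 by p among all genes tested.

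Ccnd2, which encodes cyclin D2, gave 12.48, 12.45 and 12.50 with vehicle and 12.55, 12.51 and 12.55 with purmorphamine. All 3 treated values lay above all 3 vehicle values, by a gap of only 0.01. The difference was 0.06 (95% interval -0.05 to 0.18, limma adjusted p = 0.476). Ccnd3, which encodes cyclin D3, gave 9.17, 9.14 and 9.09 with vehicle and 8.90, 9.01 and 8.77 with purmorphamine. The treated values were all lower, but they spread over a wider range than the vehicle values, and the difference of -0.24 (-0.41 to -0.07) missed the threshold at a limma adjusted p of 0.0715. That miss depended on the setting: Ccnd3 passed without purmorphamine replicate 2 (-0.30, adjusted p = 0.044), with a variance trend and robust fit (adjusted p = 0.0117), with a linear offset of 50 (0.0253) and with dim genes left out (0.0291). Its adjusted p ran from 0.044 to 0.172 with 1 array left out.

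The D cyclins differed in their changes by more than the spread between arrays. The change of Ccnd1 lay 0.62 below that of Ccnd2 and 0.32 below that of Ccnd3, and that of Ccnd2 lay 0.30 above that of Ccnd3, where the within-group SDs of these paired differences were 0.05, 0.07 and 0.11. Each gave an exact two-sided permutation p of 0.10, the smallest that 3 arrays against 3 allow, and an adjusted p of 0.12 over the 7 pairs compared within families. With this test no pair could pass the threshold.

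**Figure D2:**
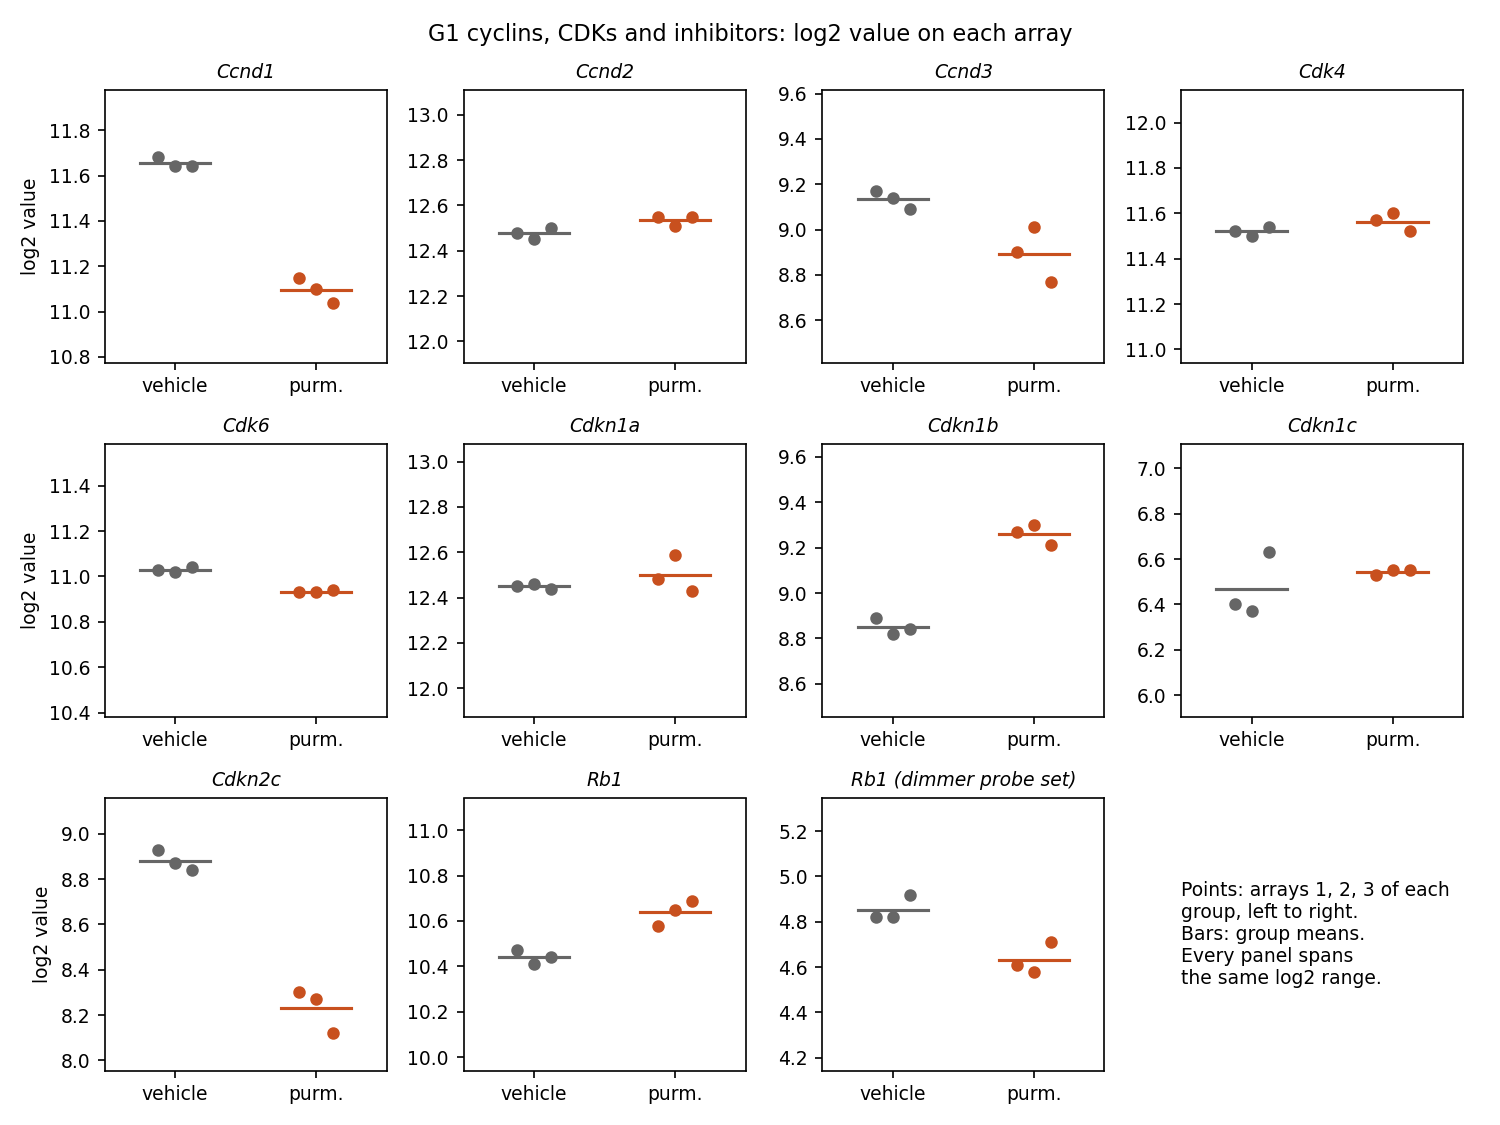
Log2 value on each of the 6 arrays (vertical axis, the same span in every panel) for the 10 genes and the dimmer Rb1 probe set, with vehicle in grey and purmorphamine in orange and bars at the group means. The groups are widest apart in Cdkn2c (gap 0.53), Ccnd1 (0.48) and Cdkn1b (0.33), and the 2 Rb1 probe sets move in opposite directions.

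The kinase genes Cdk4 and Cdk6 did not pass the test. Cdk4 gave 11.52, 11.50 and 11.54 with vehicle and 11.57, 11.60 and 11.52 with purmorphamine. These ranges overlapped, and the difference was 0.05 (95% interval -0.07 to 0.16, limma adjusted p = 0.622). Cdk6 gave 11.03, 11.02 and 11.04 with vehicle and 10.93, 10.93 and 10.94 with purmorphamine. Its arrays agreed to within 0.02 inside each group and the groups did not overlap, yet the difference was small, -0.10 (-0.21 to 0.01, adjusted p = 0.224). limma moderates each gene's variance toward that of other genes, which gave Cdk6 a SE of 0.05 although its SD was 0.01 in both groups. The changes of the 2 kinases differed by 0.14 (exact permutation p = 0.10, the smallest possible).

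Of the Cip/Kip inhibitors, Cdkn1b rose, and Cdkn1a and Cdkn1c did not pass. Cdkn1b encodes p27, an inhibitor of cyclin E and CDK2 that is known to be high in resting cells. Its values were 8.89, 8.82 and 8.84 with vehicle and 9.27, 9.30 and 9.21 with purmorphamine, with no overlap. Cdkn1b rose by 0.41 log2 units, from 8.85 ± 0.03 to 9.26 ± 0.04 (SD, n = 3; SE 0.05, limma adjusted p = 0.00293), and ranked 697 by p among all genes. Its adjusted p stayed between 0.0102 and 0.016 with any 1 array left out.

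Cdkn1a encodes p21, the inhibitor best known as a target of p53. It gave 12.45, 12.46 and 12.44 with vehicle and 12.48, 12.59 and 12.43 with purmorphamine. Purmorphamine replicate 2 was high, replicate 3 lay below all vehicle values, and the difference was 0.05 (95% interval -0.09 to 0.19, limma adjusted p = 0.635). Cdkn1c encodes p57, an imprinted inhibitor known from development and stem cell quiescence, and it was the dimmest of the 10 genes. It gave 6.40, 6.37 and 6.63 with vehicle and 6.53, 6.55 and 6.55 with purmorphamine, near the array medians of 6.34 to 6.39, so its difference of 0.08 (-0.11 to 0.26, adjusted p = 0.587) may be compressed. Vehicle replicate 3 stood above the rest of its group, and without it the difference was 0.16 with an adjusted p of 0.15.

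The change of Cdkn1b lay 0.36 above that of Cdkn1a and 0.34 above that of Cdkn1c, with an exact two-sided permutation p of 0.10 for each, the smallest possible. Cdkn1a and Cdkn1c differed in their changes by -0.03 (exact permutation p = 0.80), against a within-group SD of 0.12.

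The INK4 inhibitor gene Cdkn2c showed the largest change of the 10 genes. It encodes p18, which binds CDK4 and CDK6, and E2F factors are known to drive its transcription. Its values were 8.93, 8.87 and 8.84 with vehicle and 8.30, 8.27 and 8.12 with purmorphamine. The highest treated value lay 0.53 below the lowest vehicle value. Cdkn2c fell by 0.65 log2 units, from 8.88 ± 0.05 to 8.23 ± 0.10 (SD, n = 3; SE 0.07, limma adjusted p = 0.00124), so this inhibitor moved in the direction opposite to Cdkn1b.

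Rb1 encodes the retinoblastoma protein, the substrate on which the D cyclin kinases act. Its brighter probe set gave 10.47, 10.41 and 10.44 with vehicle and 10.58, 10.65 and 10.69 with purmorphamine. The groups did not overlap, and the gene rose by 0.20 log2 units (SE 0.05, 95% interval 0.07 to 0.33, limma adjusted p = 0.0492). Its dimmer probe set gave 4.82, 4.82 and 4.92 with vehicle and 4.61, 4.58 and 4.71 with purmorphamine, all below the lower quartile of every array, which lay between 5.03 and 5.08. This probe set was lower with purmorphamine, by -0.22, and did not pass as its own test (limma adjusted p = 0.138 over all probe sets, of which 5.24% passed). The mean of both gave -0.01. The call of Rb1 was lost whichever array was omitted (adjusted p 0.073 to 0.138 over the 6 fits), with arrays centred on their medians (0.0666), with array weights (0.0546) and with all probe sets tested separately (0.125). A further 2 probe sets carried the symbols of both Rb1 and Lpar6, a receptor gene that lies inside Rb1, and were left out by the rule.

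**Figure D3:**
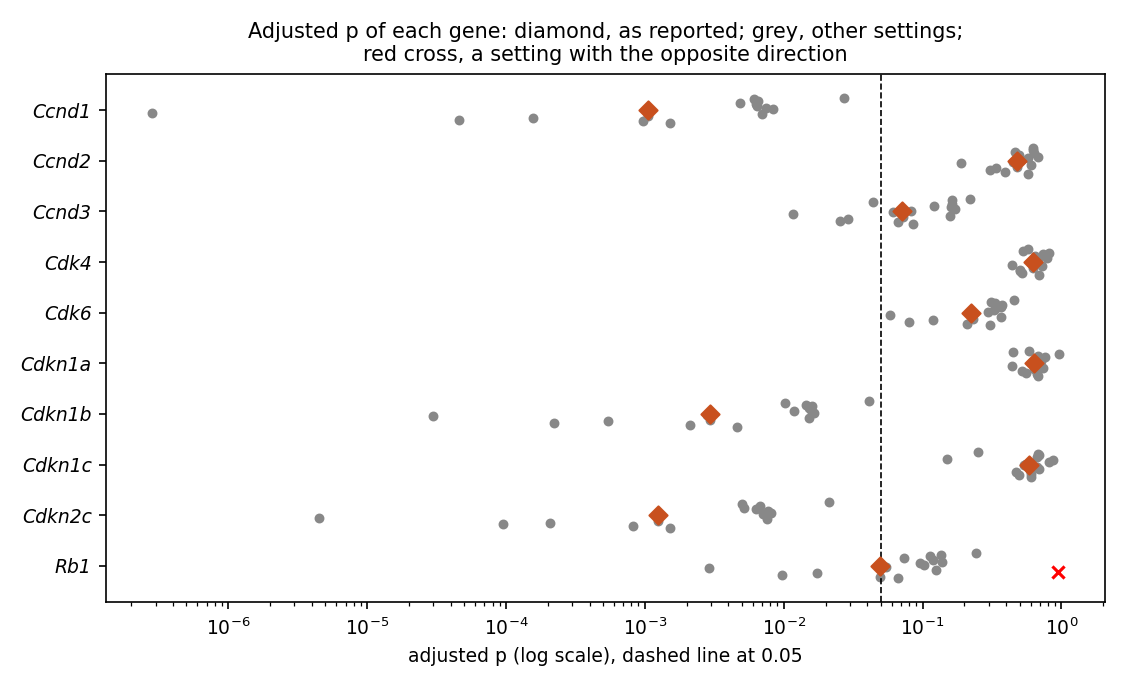
Limma adjusted p (horizontal axis, log scale) of each of the 10 genes as reported (diamond) and under the other settings (grey points), with a red cross where the direction was opposite and a dashed line at 0.05. Ccnd1, Cdkn1b and Cdkn2c stay left of the line in all settings drawn, Ccnd3 and Rb1 fall on both sides of it, and the cross is the mean of both Rb1 probe sets.

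The groups did not overlap in 7 of the 10 genes, 3 higher and 4 lower with purmorphamine. Over all genes tested this held for 34.2% (17.1% higher and 17.1% lower), and for 60.2% of those with a mean above 8.21, so 7 of 10 is near the background of bright genes. Purmorphamine replicate 3 was the lowest array of its group in 6 of the 10 genes, and vehicle replicate 2 of its group in 7. Across the series, array medians lay between 6.34 and 6.39, and correlations across genes, which are not independent replicates, were 0.996 to 0.997 within a group and 0.992 to 0.993 between groups. On the second principal component, with 13.2% of the variance, the arrays numbered 3 had scores of -13.55 (vehicle) and -9.56 (purmorphamine), against 3.06 to 6.88 for the other 4. Without both of them, which leaves 2 arrays per group, Ccnd1 (-0.53, limma adjusted p = 0.0271), Cdkn2c (-0.61, 0.0213) and Cdkn1b (0.43, 0.0412) were still called and Rb1 (0.18, 0.242) was not. The counts of all called genes then dropped to 440 raised and 511 lowered, from 1593 and 1588.

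The E2F and DP genes fell in part. Of the 10, 6 fell, with a median difference of -0.30. Counts called in this and the following lists stand beside 14.3% of all genes and 28.4% of genes with a mean above 8.21. E2f8 and E2f7, atypical E2Fs that repress E2F targets, fell by 1.03 and 0.64 log2 units (limma adjusted p = 1.22e-04 and 6.23e-04). E2f2, an activator, fell by 0.70 and Tfdp1, a DNA-binding partner of E2F factors other than these atypical ones, by 0.32. Without both arrays numbered 3, only 2 of the 10 were called. Of 5 relatives of Rb1 and Cdkn2c, the pocket protein gene Rbl1 (p107) fell by 0.51 (adjusted p = 0.00157). The other pocket protein gene, Rbl2 (p130), differed by 0.14 (adjusted p = 0.0956), and the INK4 genes Cdkn2d, Cdkn2a and Cdkn2b by -0.23 (0.0721), -0.06 (0.582) and -0.01 (0.965).

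CDK2 with cyclin E or A acts after CDK4 and CDK6. Of 7 measured genes of cyclin E, cyclin A and CDK2, 3 fell and 1 rose. Cdk2 fell by 0.60 (limma adjusted p = 7.06e-04), the cyclin genes Ccna2 and Ccne1 by 0.58 and 0.52, and Cdk7, of the CDK activating kinase, rose by 0.25 (0.0436). Cdk7 was not called with arrays centred on their medians, and without both arrays numbered 3 the list had 0 rises and 2 falls. Of 10 measured genes that encode parts or partners of ubiquitin ligases for G1 proteins, 2 fell, a share close to the 14.3% of all genes called and below the 28.4% of bright genes: Skp2, which marks p27 for degradation, by 0.39 (0.0132) and its cofactor gene Cks1b by 0.31 (0.025). Neither was called without both arrays numbered 3.

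All 15 measured S phase genes known as E2F targets fell, with a median of -0.61, and 13 of them were called without both arrays numbered 3. Differences ran from -1.03 for the helicase gene Mcm5 to -0.36 for the sliding clamp gene Pcna. Thymidine kinase 1, Tk1, fell by 0.86 (limma adjusted p = 2.93e-04).

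Other p53 targets rose in part, beside an uncalled Cdkn1a. Of 15 measured, 7 rose, 1 fell and 7, like Cdkn1a, did not pass, with a median of 0.19. Without both arrays numbered 3, 4 rose. Trp53inp1 rose by 0.61 (limma adjusted p = 7.26e-04), Sesn2, a stress-induced inhibitor of mTORC1, by 0.52, Eda2r by 0.48 and the antiproliferative gene Btg2 by 0.44. Several of these genes are known to respond to other stress signals as well. Sesn1, a close relative of Sesn2, fell by 0.71 and was chosen for mention after its value was seen. The difference between these genes and Cdkn1a was not tested. The Hedgehog readout genes Gli1, Ptch1 and Hhip differed by -0.12, 0.17 and 0.06 (limma adjusted p = 0.362, 0.188 and 0.647). None of the 3 passed, and 0 had an unadjusted p under 0.05. Gli1 and Hhip had vehicle means of 6.12 and 5.28, below the array medians of 6.34 to 6.39, so their differences may be compressed.

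**Figure D4:**
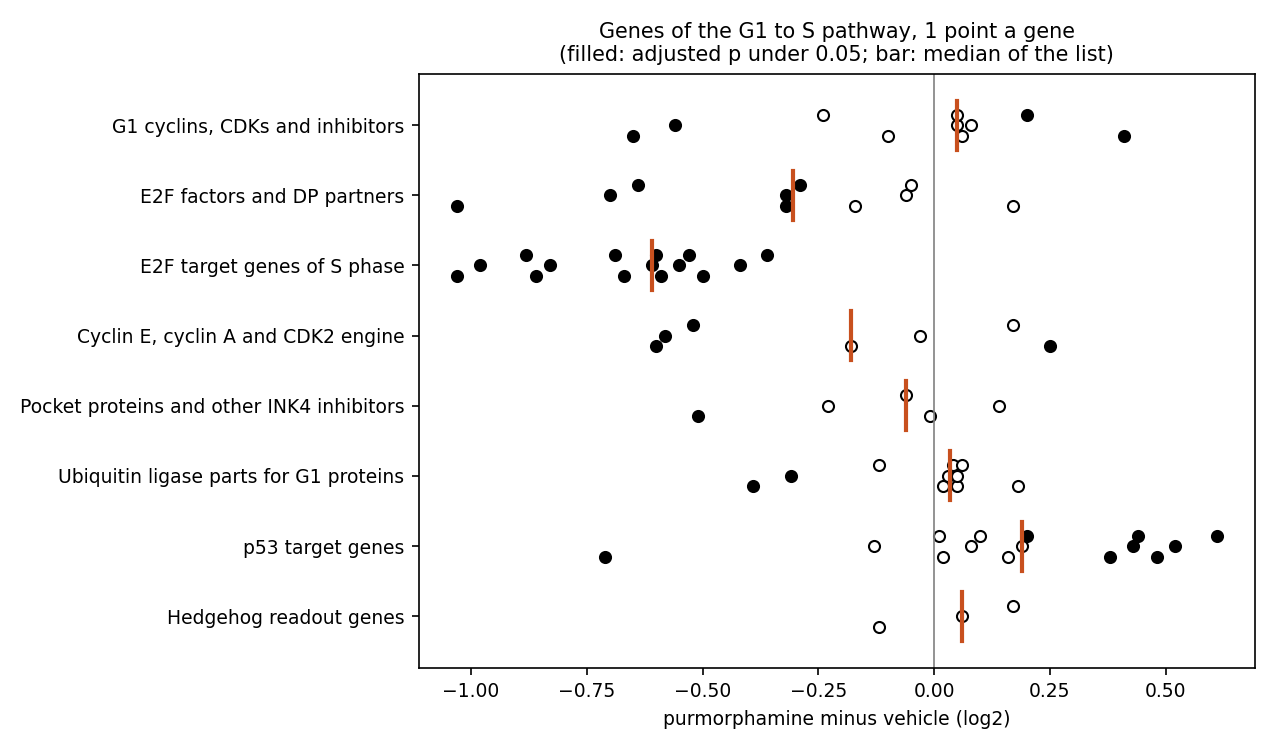
Difference between purmorphamine and vehicle in log2 units (horizontal axis) for the 10 genes and for 7 lists of pathway genes, 1 point a gene, filled where the adjusted p was under 0.05, with a bar at each list's median. The S phase genes lie wholly below 0, with a median of -0.61, while the 10 G1 genes lie on both sides of 0, with a median of 0.05.

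The genes whose 6 array values, centred on each gene's mean, lay closest to those of Cdkn1b were the platelet-derived growth factor receptor gene Pdgfrb (root mean square difference 0.019), the Hedgehog co-receptor gene Boc (0.021) and Cnpy2 (0.024). They differed between the groups by 0.38, 0.41 and 0.41. Closest to Cdkn2c were the ETS factor gene Etv5 (0.032), the galactosyltransferase gene B4galt6 (0.033) and the mitotic kinesin gene Kif23 (0.039), with differences of -0.68, -0.59 and -0.63. With 6 arrays in 2 groups, likeness of this kind mostly means a change of the same size.

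Markers of the cell types that a lung digest can hold were measured in the same arrays. Of 11 fibroblast markers 9 rose and 1 fell, and the log2 of their summed signal went from 14.87 to 14.91 with vehicle to 15.07 to 15.12 with purmorphamine. Of 12 macrophage and leukocyte markers, all brighter than the upper quartile, 1 rose and 4 fell, with a median difference of 0.02. They ran from Itgam (-1.46) to Itgax (0.31), and the summed signal went from 16.00 to 16.01 down to 15.90 to 15.94. With a linear offset of 50, 4 of them rose and 4 fell. The shares of markers called, in these and the following marker lists, stand beside the same 14.3% of all genes and 28.4% of bright genes. Of 7 endothelial markers 3 rose (summed signal 11.93 to 12.03 with vehicle, 12.13 to 12.20 with purmorphamine), of 8 epithelial markers 1 rose (12.06 to 12.10 and 12.09 to 12.10), and of 5 measured lymphocyte markers 0 passed the limma test and 1 had an unadjusted p under 0.05 (8.18 to 8.41 and 8.27 to 8.41). The club cell marker Scgb1a1 and the B cell marker Ms4a1 were among the dimmest, at vehicle means of 4.24 and 5.03. By contrast, 4 of the 8 epithelial and 5 of the 7 endothelial markers had means above the upper quartile of all array values. Among them were epithelial Krt18 and Cdh1 (vehicle means 10.61 and 10.15) and endothelial Emcn and Cdh5 (10.46 and 10.35). Epithelial Sftpc, Sftpb and Nkx2-1 (6.40, 6.35 and 5.89) and endothelial Tek and Cldn5 (6.57 and 6.29) lay below that quartile. The macrophage and leukocyte markers had means over all arrays from 10.17 to 13.99, with 12 of 12 above that quartile. Those of the fibroblast markers ran from 6.26 to 13.67, with 7 of 11 above it. Fibroblast transcripts, macrophage transcripts as bright as these, and some epithelial and endothelial marker transcripts were thus present. Values are those of whole cultures, and the part of a change in cell makeup in the differences of the G1 genes was not tested. Which cells of the cultures the G1 and S phase differences came from was not tested either. Without both arrays numbered 3, 3 fibroblast and 1 endothelial markers rose, 3 leukocyte markers fell, and no other marker was called.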

How the data were processed

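RNA of 6 wells (3 vehicle, 3 purmorphamine) was measured, 1 array per well, from 100 ng of total RNA per the labels' protocols. The authors deposited log2 values for each probe set on each array. The submitters' processing notes name oligo, RMA and limma, with versions not given in the sources used here. RMA equalises the distribution of probe values across arrays, so a shift shared by all genes is hidden, and it compresses changes of dim genes. All 6 columns were matched to samples by accession.

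Genes were named from the supplied platform annotation: 23521 of 41345 probe sets had 1 symbol, 1814 had several and 16010 none. Where a gene had several probe sets (1082 genes), the brightest was used. Purmorphamine minus vehicle was fitted with limma 3.58.1 (lmFit, eBayes; R 4.3.3), two-sided, without a block or a filter, with Benjamini-Hochberg adjustment over 22180 genes. No set test was run. Differences between family members used exact permutation over arrays. The fit was tested on simulated data with 200 of 22180 genes changed. It recovered 90% of the 2-fold changes and 46% of the smaller ones, and 8 of its 144 calls were false. A gene that did not pass may thus still have changed. The plots were drawn with Python 3.11.15 and matplotlib 3.10.9.

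The genes and lists were chosen with earlier results of these data known. Named were all 10 G1 genes, at most 4 called genes of smallest p per list, the 3 Hedgehog readout genes, and the 3 nearest patterns to the largest rise and fall. Markers, and members that did not pass or show a list's range, were named beyond that rule after their values were seen. Alternatives were median centring, quantile normalization, a filter on dim genes (the lowest share of 0.333), an offset of 50 on the linear scale, averaged probe sets, every probe set as its own test, a variance trend with a robust fit, a block for the replicate number, array weights, a threshold of 0.1, a minimum fold of 1.5, each array left out and, added after seeing the data, both arrays numbered 3 left out. There is no read depth on arrays; precision is limited by their number, with a median SE of 0.07.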

Additional observations from a re-analysis of the deposited data

How the results depend on the processing

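Of 10 genes, Cdkn2c kept its direction and call under all 18 alternatives and Ccnd1 and Cdkn1b under 17, the exception being a fold of at least 1.5. Ccnd2, Cdk4, Cdk6, Cdkn1a and Cdkn1c kept their direction and missed the test under all 18. Ccnd3 was called under 5. Rb1 lost its call under 12 and reversed to -0.01 with the mean of its probe sets, since its probe sets differ in direction. The count of raised members was therefore 1 with median centring, the mean of probe sets, every probe set as its own test, array weights, the replicate block and both arrays numbered 3 left out, and in each fit with 1 array left out, where the count of lowered members ran from 2 to 3. With a fold of at least 1.5, 0 members rose and 1 fell.

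Over all genes, 214 rose and 311 fell by at least 1.5-fold, 823 and 919 were called with every probe set tested, which raises the number of tests, 2416 rose when the variance had a trend and a robust fit, and 440 rose and 511 fell without both arrays numbered 3, with fewer samples. With 1 array left out, 897 to 1168 rose and 1057 to 1206 fell: 897 rose without purmorphamine replicate 1, 957 without vehicle replicate 2, 1025 without vehicle replicate 3, and 1008 rose and 1057 fell without purmorphamine replicate 3. Scaling moved the median difference of all genes by at most 0.011.

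With the replicate number as a block, 1193 genes rose and 1239 fell. Deviations from group means correlated across genes at 0.11, 0.02 and 0.10 between arrays of the same number, so the numbers were not taken to pair the samples, although each array correlated best with its own number. In that fit Rb1 (0.20, limma adjusted p = 0.102) was not called, and no other of the 10 calls changed. Cdk7 was not called in it either, and 2 rather than 3 endothelial markers rose.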
